A study of Mus musculus with 2 samples.

Results

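The JAK and STAT genes considered here are 9 of the 21827 protein-coding genes of the GENCODE vM21 annotation (mm10): the 3 Janus kinase genes Jak1, Jak2 and Jak3, and the 6 transcription factor genes Stat2, Stat3, Stat4, Stat5a, Stat5b and Stat6. They were taken by name, without a threshold on any measured value, and all 9 were found in the annotation. DNase-seq, which reads out where DNase I can cut the DNA of nuclei and so where nucleosomes leave it free, was run on whole spleen of male B6CASTF1/J mice aged 4 days. These mice are first-generation hybrids of C57BL/6J and CAST/EiJ parents. There was 1 group of 2 libraries, labelled biological replicates 1 and 2 with no treatment, second age or second tissue. The labels number the males differently but give both libraries the same donor identifier, so the SDs over 2 libraries may hold technical spread only. The data therefore hold no contrast between conditions, and the values that follow are levels with their spread over the 2 libraries, without tests.

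Janus kinases sit on the inner side of cytokine receptors. When a cytokine brings receptor chains together, the kinases phosphorylate each other, the receptor and then the STAT proteins, which pair up, enter the nucleus and bind DNA at palindromes known as GAS elements. In blood-forming tissue this is the route by which erythropoietin, interferons and most interleukins reach the genome, and the SOCS proteins that it induces shut it down again. The spleen of a newborn mouse still makes red cells beside its growing population of lymphocytes.

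For each library the authors deposited a longer and a stricter list of peaks, with a signal for each peak whose scale is not stated, and a list of footprints, which are short stretches protected from cutting inside open chromatin. Peaks were called on each library alone. The longer lists held 80323 and 88723 peaks in replicates 1 and 2, with median signals of 0.796 and 0.650, and the footprint lists held 217159 and 252901 entries. Without read totals the depth of the libraries is unknown, and a weak peak missing from 1 library was not detected there rather than shown to be absent. Of the marker genes checked, all 6 of the erythroid list and all 5 of the B cell list had a promoter peak in both libraries. Of the T cell, neutrophil and spleen stroma lists 2 of 4 each had one, of the macrophage list 1 of 4 and of the natural killer cell list 0 of 3. Of the endothelial list 2 of 3 had one, and of the megakaryocyte, hepatocyte and neuron lists 1 of 3 each. Over all protein-coding genes the share was 60.1%, so a promoter peak alone does not show that a cell type was present. Listed without one in either library were the defining T cell genes Cd3e and Cd3d, while Cd5 and Lck had one in both.

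The reference sequences (GRCm38, mm10) under the strongest promoter peaks of the family are shown first, because these 4 peaks carry the highest signals of the 9 genes. Each is written 5′ to 3′ on the strand of its gene, without untranslated exon bases of protein-coding transcripts. Capitals mark bases that lay in footprints of both libraries. Stat3 is given from chr11:100939601-100939820 (minus strand), Jak1 from chr4:101265283-101265380 (minus strand), Stat2 from chr10:128270381-128270575 (plus strand) and Jak2 from chr19:29251621-29251827 (plus strand).
Stat3 promoter: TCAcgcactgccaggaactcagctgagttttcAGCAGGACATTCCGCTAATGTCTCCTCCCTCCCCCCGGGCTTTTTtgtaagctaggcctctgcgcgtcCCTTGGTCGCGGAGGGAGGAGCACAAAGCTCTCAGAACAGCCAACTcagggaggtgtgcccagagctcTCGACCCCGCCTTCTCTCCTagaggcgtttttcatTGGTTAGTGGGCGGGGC
Jak1 promoter: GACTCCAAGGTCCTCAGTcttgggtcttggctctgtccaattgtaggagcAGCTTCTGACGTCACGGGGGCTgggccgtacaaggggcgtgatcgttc
Stat2 promoter: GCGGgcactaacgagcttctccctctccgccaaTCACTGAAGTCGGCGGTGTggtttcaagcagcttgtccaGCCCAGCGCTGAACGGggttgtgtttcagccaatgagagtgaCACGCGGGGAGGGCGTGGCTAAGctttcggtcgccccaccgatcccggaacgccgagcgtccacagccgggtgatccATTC
Jak2 promoter: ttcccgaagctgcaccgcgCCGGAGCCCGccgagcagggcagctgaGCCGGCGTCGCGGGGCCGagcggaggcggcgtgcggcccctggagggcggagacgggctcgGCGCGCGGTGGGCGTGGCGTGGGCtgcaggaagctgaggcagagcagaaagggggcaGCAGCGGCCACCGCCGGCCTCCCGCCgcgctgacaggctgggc

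A second set of sequences comes from peaks away from start sites, or, at Stat6, about 1 kb upstream of one. Each of these 5 holds AGGGGGC, or GCCCCCT on the other strand, wholly inside footprints of both libraries. These letters are the core of the sequence read by CTCF, the zinc finger protein known for organising chromatin loops. The core was added to the motif list after the sequences were seen. The peaks are chr10:127641861-127642040 upstream of Stat6, chr19:29253881-29254060 in an intron of Jak2, chr19:29355661-29355840 in an intron of Plgrkt beyond Jak2, chr10:128335701-128335880 downstream of Stat2 (all plus strand), and chr11:100893521-100893700 over a coding exon of Stat3 (minus strand).
Stat6 upstream peak: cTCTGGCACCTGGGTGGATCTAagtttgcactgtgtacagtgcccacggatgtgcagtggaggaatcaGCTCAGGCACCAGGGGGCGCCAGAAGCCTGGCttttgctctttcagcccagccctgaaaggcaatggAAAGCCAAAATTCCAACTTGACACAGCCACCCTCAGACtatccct
Jak2 intron peak: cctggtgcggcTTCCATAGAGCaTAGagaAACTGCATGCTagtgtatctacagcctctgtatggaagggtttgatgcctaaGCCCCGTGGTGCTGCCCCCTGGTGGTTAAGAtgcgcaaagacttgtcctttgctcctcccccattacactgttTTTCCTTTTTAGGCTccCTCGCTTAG
Plgrkt intron peak: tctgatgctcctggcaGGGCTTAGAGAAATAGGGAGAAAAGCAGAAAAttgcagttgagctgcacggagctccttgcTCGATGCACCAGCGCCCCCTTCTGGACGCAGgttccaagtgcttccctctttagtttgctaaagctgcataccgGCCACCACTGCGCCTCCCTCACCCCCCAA
Stat2 downstream peak: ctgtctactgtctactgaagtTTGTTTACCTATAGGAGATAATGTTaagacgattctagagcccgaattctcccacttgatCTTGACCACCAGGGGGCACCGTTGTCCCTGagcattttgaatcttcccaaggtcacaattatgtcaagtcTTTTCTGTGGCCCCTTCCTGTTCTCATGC
Stat3 exon peak: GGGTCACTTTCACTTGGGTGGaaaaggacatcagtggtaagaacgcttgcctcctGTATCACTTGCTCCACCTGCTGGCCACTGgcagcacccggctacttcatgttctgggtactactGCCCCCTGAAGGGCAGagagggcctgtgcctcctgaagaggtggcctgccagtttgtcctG

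A promoter was called open where a peak of the longer list lay within 1 kb of any protein-coding start site of the gene in both libraries, and its signal is the highest such peak in each library. All 9 genes met this call, against 60.1% of all protein-coding genes. Most promoters rich in CpG are open in any tissue, so the share was also taken by CpG content. An observed over expected CpG ratio of at least 0.5 in the 1 kb around the most upstream start site was found at 7 of the 9 genes, and 89.7% of all genes with such promoters were open. The other two, Stat4 and Stat5a, were CpG-poor by that measure, a class in which 23.8% of genes were open. In the stricter lists 8 of the 9 had a promoter peak in both libraries, against 54.7% of all genes. The exception was Stat4, which had one in replicate 2 only. Likewise 8 of the 9 had at least 1 promoter footprint found in both libraries, against 56.3% of all genes, and again Stat4 was the exception. With 9 genes taken by name these counts are descriptions.

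**Figure D1:**
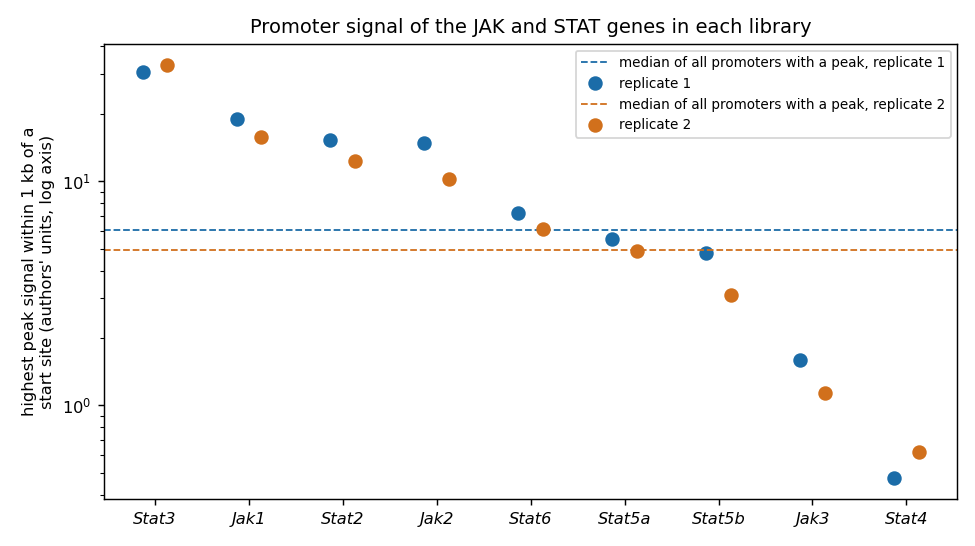
Promoter signal of the 9 genes in replicate 1 (blue) and replicate 2 (orange), as the highest deposited peak signal within 1 kb of a start site on a log axis, ordered by the mean. Dashed lines give the median of all promoters with a peak in each library, 6.04 and 4.93; Stat3 stands highest and Stat4 lowest in both libraries.

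The signals of the 9 promoters spanned from 0.545 to 31.9 as means of the 2 libraries, with a median of 6.65, where all open promoters had a median of 5.83. The order of the 9 genes was identical in the 2 libraries, and the plot of promoter signal by library shows it. Between neighbours in that order, the values of the 2 libraries overlapped only for Stat2 and Jak2, and they did not overlap there either once each library was divided by its own median. The smallest gaps relative to the spread were those of Stat2 to Jak2, at 0.372 times the larger of the 2 SDs, and of Stat5a to Stat5b, at 1.04 times. In bulk tissue, a site that is open in few cells and a site that is weakly open in many cannot be told apart.

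Among the kinases, Jak1 had the strongest promoter. Jak1 (ENSMUSG00000028530.14, chr4:101152367-101265282, minus strand) encodes the kinase that serves interferon receptors, the receptors of the interleukin-6 family and those with the common gamma chain. Its promoter signal was 19.0 in replicate 1 and 15.8 in replicate 2 (17.4 ± 2.24, SD, n = 2), rank 1063 of 13614 and 1138 of 13697 genes with a promoter peak. The peak lay from -98 to 61 bp around the only start site considered. Within 1 kb of the start site there were 8 and 6 footprints, of which 5 were found in both libraries. One of them covered TGACGTCA, the cyclic AMP response element, with its first base at -42. That word was present in the central 200 bp of 3.42% of the 11895 open promoters compared, and in no other promoter of the 9.

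Jak2 (ENSMUSG00000024789.13, chr19:29251828-29313080, plus strand) encodes the kinase of the erythropoietin and growth hormone receptors. Its promoter signal was 14.8 and 10.3 (12.6 ± 3.23, SD, n = 2), rank 2213 and 3252. Replicate 1 was the higher library, and the log2 ratio of replicate 1 over replicate 2, after centring on all shared regions, was 0.37. The main peak covered -207 to 12 bp of the first start site, with a weaker one of 1.98 and 1.71 at the second start site 613 bp further on. Jak2 had 21 and 15 promoter footprints, and the 11 of them found in both libraries were the most of the 9 genes. A second strong peak lay in an intron just inside the gene, at chr19:29253881-29254060, with its midpoint 2.14 kb from the first start site. Its signals were 9.11 and 6.90 in the 2 libraries (SD 1.56), which puts it below the promoter in both libraries and above the promoters of the 5 weakest genes of the family. The CTCF core of this intron peak, printed among the second set of sequences, was footprinted in full.

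Jak3 had the weakest promoter of the 3 kinases. Jak3 (ENSMUSG00000031805.17, chr8:71676296-71690575, plus strand) encodes the kinase bound to the common gamma chain, which lymphocytes need for interleukin-2, interleukin-7 and interleukin-15. Its promoter signal was 1.59 and 1.13 (1.36 ± 0.325, SD, n = 2), rank 10245 and 10657, so that 75.2% and 77.8% of genes with a promoter peak were stronger. Both libraries thus placed it among the weak promoters, far under Jak1 and Jak2. The peak lay downstream of the first start site, from 65 to 444 bp in replicate 1 and from 85 to 324 bp in replicate 2. A further peak of 0.962 and 0.736 lay beyond the second start site, 1255 bp from the first. The chain that Jak3 binds, Il2rg, had a promoter signal of 0.478 and 0.527, and Il7r, which pairs with it, had 0.478 and 0.360. In 1 footprint of the Jak3 promoter stood a pair of overlapping GCATGCGC words, a palindrome-like core read by NRF1, a factor known from promoters of mitochondrial and housekeeping genes. This core too was added after the sequences were seen. NF-kappaB words, spelled GGGANNTTCC, were found in the central 200 bp of the Jak3 promoter and of 1.10% of open promoters compared, and in no other promoter of the 9.

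**Figure D2:**
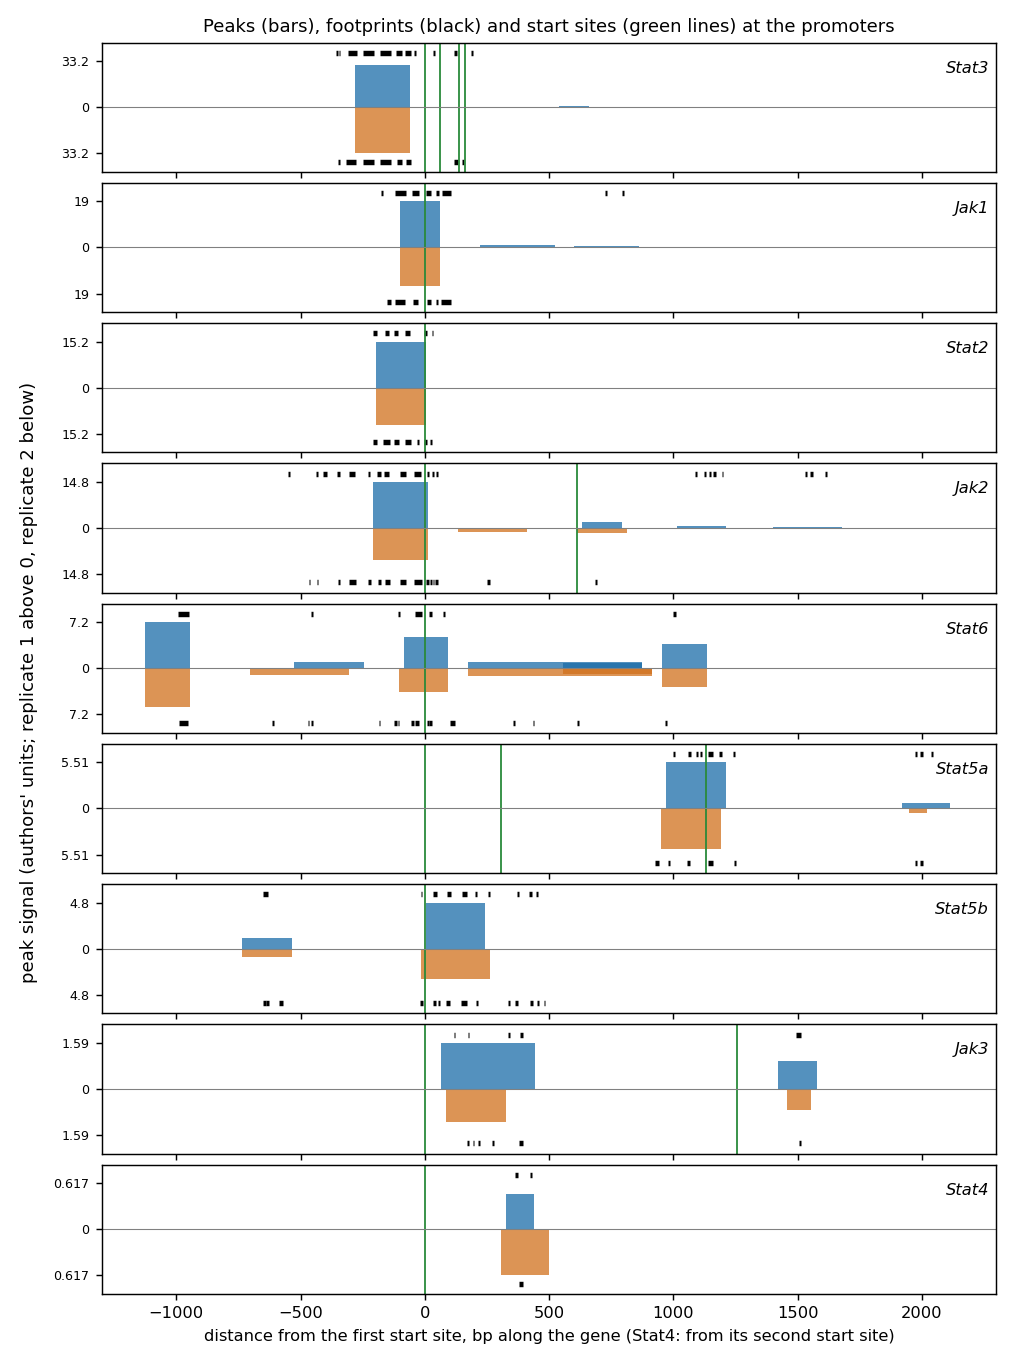
Peaks (bars, height is the deposited signal, replicate 1 above 0 and replicate 2 below), footprints (black marks) and start sites (green lines) along 3.6 kb of each promoter, in bp from the first start site, or from the second for Stat4. Each panel has its own signal axis; the Stat3 peak ends before the first start site, the Stat5a peak spans the third and the strongest Stat6 peak lies about 1 kb upstream.

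Stat3 had the strongest promoter of the 9 genes. Stat3 (ENSMUSG00000004040.16, chr11:100885098-100939540, minus strand) encodes the factor activated through interleukin-6, interleukin-10 and granulocyte colony-stimulating factor. Its promoter signal was 30.7 in replicate 1 and 33.2 in replicate 2 (31.9 ± 1.78, SD, n = 2), rank 103 of 13614 and 10 of 13697. Only 0.749% and 0.0657% of genes with a promoter peak were stronger. The peak was 220 bp wide with the same borders in both libraries, from -280 to -61 bp of the first of 4 start sites, so it ended before transcription begins. Of 11 and 8 footprints within 1 kb, 8 were found in both libraries. The 5 of these that overlapped the peak covered 131 of its 220 bases, as the capitals of the printed sequence show. Footprints of both libraries covered CCCCGCCC at -69 and CCTCCCCC at -221 on 1 strand or the other, both of which match the KLF word CCNCNCCC. Kruppel-like factors include Klf1, a regulator of red cell genes.

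The same KLF word lay wholly in footprints of both libraries at the other three of the 4 strongest promoters, as CCACGCCC at -91 of Jak2 and at -71 of Stat2 and as CCCCGCCC at 10 of Jak1, just past the end of the printed Jak1 sequence. It did so too at the weaker Stat5b promoter, as CCGCGCCC at 39, while the Stat5b match at 207 did not. No KLF match in the main promoter peaks of Jak3 and Stat5a lay wholly in footprints of both libraries. Over the genome 23.5% of the 62100 KLF matches in shared regions lay wholly in footprints of both. It is a common word: in the central 200 bp it was present at 7 of the 9 promoters and at 64.7% of the 11895 open promoters compared. The SP word GGGCGG, which overlaps it on the other strand, was present at 5 of the 9 and at 65.1% of all. CCAAT, the word of NF-Y, was present at Jak1, Stat2 and Stat3, and at 30.9% of all. Motifs were searched on both strands, and a match describes the letters, not a protein bound there.

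Stat2 (ENSMUSG00000040033.16, chr10:128270559-128292849, plus strand) encodes the partner of Irf9 in the complex that carries the type I interferon signal. Its promoter signal was 15.2 and 12.3 (13.8 ± 2.09, SD, n = 2), rank 2064 and 2289. The only promoter peak covered -195 to 4 bp of the protein-coding start site at chr10:128270576 in both libraries. That site lies inside the gene borders given above, so the printed sequence ends within the annotated gene. Of 6 and 7 footprints, 6 were found in both libraries. The partner gene Irf9 had a promoter signal of 9.71 and 11.0 (10.4 ± 0.917, SD, n = 2), lower than Stat2 in both libraries. The receptor gene Ifnar1, which feeds this pair, had 23.3 and 19.1 (21.2 ± 2.99, SD, n = 2).

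Stat6 (ENSMUSG00000002147.18, chr10:127642986-127660957, plus strand) encodes the factor of interleukin-4 and interleukin-13 signalling. Its promoter signal of 7.20 and 6.10 (6.65 ± 0.782, SD, n = 2), rank 6010 and 5870, came from a peak at -1125 to -946 bp, not from the start site. The peak over the start site had signals of 4.92 and 3.77, and another, from 955 to 1134 bp, had 3.75 and 2.96. Stat6 thus had 3 narrow peaks, with wider and weaker ones between them whose signals ran from 0.833 to 1.14. The upstream peak held the CTCF core AGGGGGC at -1046 in footprints of both libraries. With a window of 500 bp in place of 1 kb, this peak dropped out and the Stat6 value became 4.34, below that of Stat5a. With the peaks of the window summed, it became 17.3, which placed Stat6 3rd of the 9.

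Stat5a and Stat5b encode near-identical factors that carry the signals of erythropoietin, interleukin-2, growth hormone and prolactin, and they lie head to head on chromosome 11. Stat5a (ENSMUSG00000004043.14, chr11:100859351-100885169, plus strand) had a promoter signal of 5.51 and 4.87 (5.19 ± 0.451, SD, n = 2). Stat5b (ENSMUSG00000020919.11, chr11:100780731-100850724, minus strand) had 4.80 and 3.11 (3.95 ± 1.19, SD, n = 2). Stat5a was the higher of the pair in both libraries, by 1.24 in the mean, about as much as the SD of Stat5b. With the peaks of the window summed the order turned, at 5.79 for Stat5a and 5.97 for Stat5b. Both were close to the median promoter, with 52.6% and 50.3% of genes stronger than Stat5a and 56.0% and 61.4% stronger than Stat5b.

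The pair differed in where the peak lay. The Stat5a peak covered 970 to 1209 bp after the first start site in replicate 1 and 950 to 1189 bp in replicate 2. It thus spanned the third start site, 1133 bp from the first, while no peak lay at the first or the second. The CpG ratio followed the same split, 0.213 at the first start site and 0.601 at the third. At Stat5b the peak covered the first start site or began 4 bp after it, in a CpG-rich stretch with a ratio of 0.862. Its second start site, 28196 bp downstream, had a peak of 1.09 and 0.952. Stat5b had 11 and 17 promoter footprints, 10 of them found in both libraries, and Stat5a had 10 and 7, with 5 in both.

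Stat4 had the weakest promoter of the family. Stat4 (ENSMUSG00000062939.11, chr1:51987148-52107189, plus strand) encodes the factor of interleukin-12 signalling in T cells and natural killer cells. Its promoter signal was 0.473 and 0.617 (0.545 ± 0.102, SD, n = 2), rank 12515 and 11850, with 91.9% and 86.5% of genes with a promoter peak stronger. Within 1 kb of its first start site there was no peak, no footprint and no base under the authors' false discovery rate (FDR) of 0.05 in either library. The peaks counted here lay 328 to 437 bp and 305 to 497 bp beyond the second start site, which is 21095 bp further into the gene. The lowest FDR there was 0.00356 in replicate 1 and 0.000388 in replicate 2. Replicate 1 had 2 footprints there and replicate 2 had 1, none of them in both libraries. Of the markers of the cells named, the 3 natural killer cell genes and the T cell genes Cd3e and Cd3d had no promoter peak in either library, while the T cell genes Cd5, at 1.02 and 1.34, and Lck, at 1.67 and 1.01, were above Stat4 in both. The part of cell content in the Stat4 level was not tested.

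Stat4 was also the gene with the largest tilt toward replicate 2. After centring, its log2 ratio of replicate 1 over replicate 2 was -0.55, against a 5th percentile of -0.40 over all open promoters. Stat3 was the only other gene of the family on that side, at -0.28. The remaining 7 lay on the side of replicate 1, up to 0.46 for Stat5b, which is above the 95th percentile of 0.44. Over all open promoters 8280 lay on that side and 4844 on the other, and the median was 0.08, close to the 0.10 of the 9 genes. The B cell markers moved the same way as Stat4: all 5 were higher in replicate 2, with a median centred ratio of -0.58. Their summed signals, not centred, were 8.43 and 11.5. Other weak marker promoters did so as well, with -0.57 at the T cell gene Cd5, -0.59 at the stroma gene Tlx1 and -0.54 at the liver gene Apob, while the T cell gene Lck was at 0.56. The erythroid markers summed to 62.1 and 56.5 without centring, where all protein-coding genes summed to 106007 and 89039, a larger tilt to replicate 1. After centring, 4 of the 6 lay on the side of replicate 1, the commoner side over all open promoters. The part of marker levels in the Stat4 value was not tested.

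**Figure D3:**
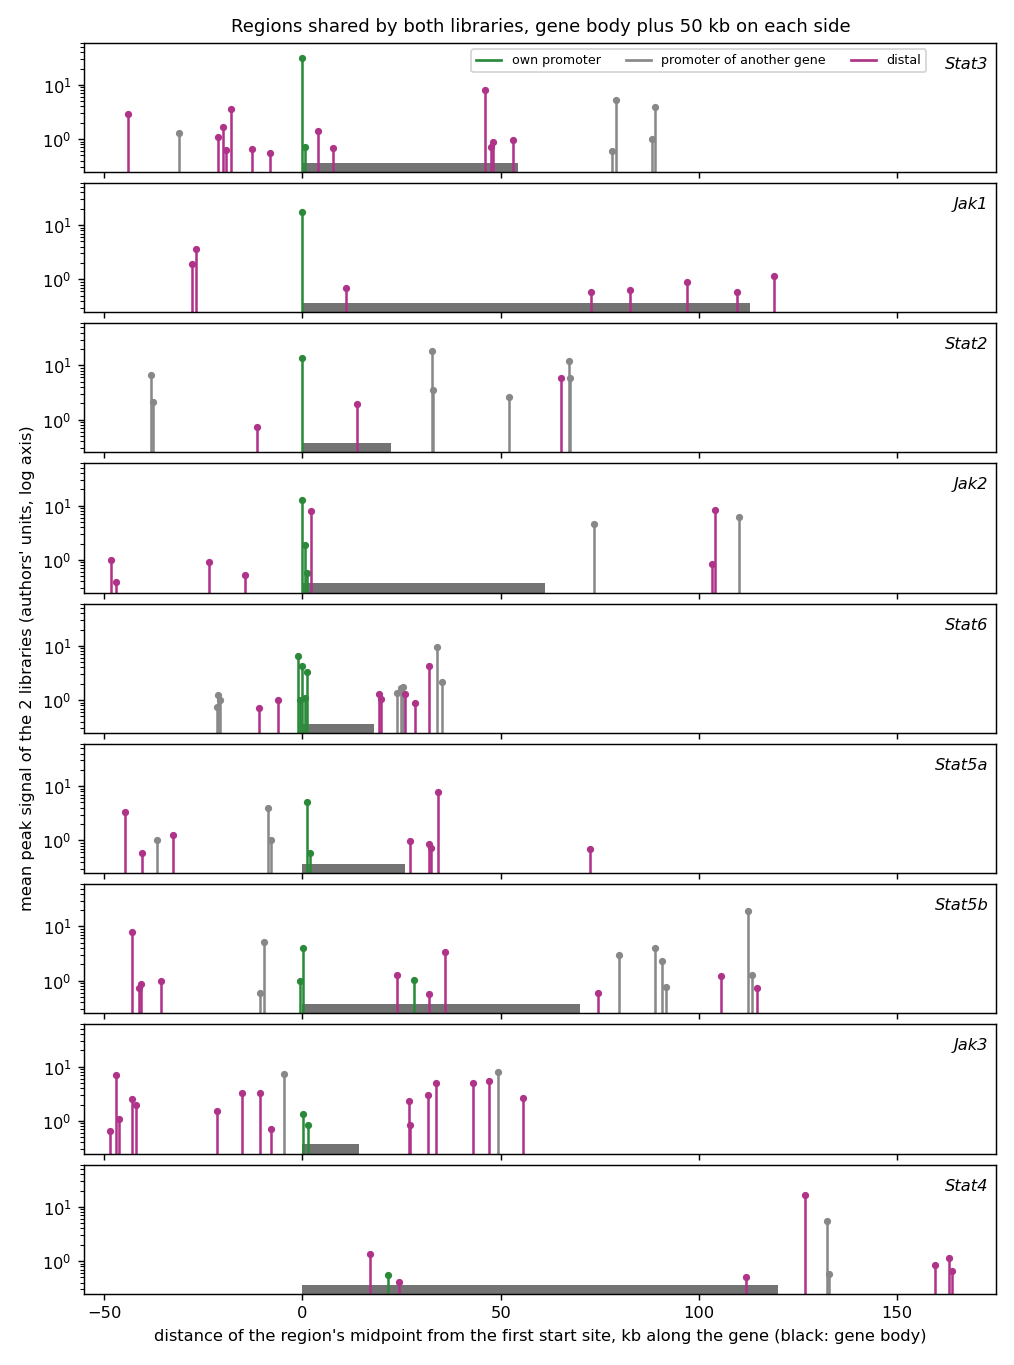
Regions with a peak in both libraries, as stems at their midpoint, over each gene body (black bar) and 50 kb on each side, in kb from the first start site along the gene; height is the mean deposited signal on a log axis. Green stems are the gene's own promoter regions, grey stems promoters of other genes and purple stems lie elsewhere; 12 purple stems at Jak3, 5 at Stat4 and 1 each at Stat5a and Stat5b stand above the gene's own promoter, and no purple stem does at the other 5 genes.

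Around the genes, the gene body plus 50 kb on each side held 168 separate regions of merged peaks, of which 115 had peaks of both libraries (68.5%, against 57.7% of the 105096 regions of the genome). Only replicate 1 had a peak in 24 and only replicate 2 in 29. These were weak, with median signals of 0.522 and 0.352, against 1.53 and 1.29 for the shared ones. The windows of Stat3, Stat5a and Stat5b overlap, so the 115 regions count 136 times when listed gene by gene. A median of 13 shared regions per gene was found, or 10.3 per 100 kb, where the medians over all protein-coding genes were 6 and 4.51.

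Jak3 had the densest surroundings, 20 shared regions or 17.5 per 100 kb, with 4.47% of genes denser. Stat6 followed with 20 regions, and 5.00% of genes were denser. The sparsest were Jak1 with 9 regions in its long window (4.23 per 100 kb) and Stat4 with 10 (4.54 per 100 kb), both near the median of all genes. By promoter signal, Jak3 was 8th of the 9 by promoter signal, and Jak1 was 2nd.

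At Jak3, 16 of the 20 shared regions lay away from promoters, and 12 of the 16 had a higher mean signal than its own promoter. The strongest was at chr8:71629301-71629520, within the gene Unc13a, 46.9 kb upstream of the first start site, with signals of 6.80 and 7.17 (6.98 ± 0.258, SD, n = 2). Downstream, 5 regions with mean signals from 2.69 to 5.49 lay between 31.8 and 55.6 kb from the start site, in or near Fcho1. The signals of the strongest region were higher than the Jak3 promoter in both libraries, by a wide margin relative to either spread.

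At Stat4 the strongest region lay past the gene, at chr1:52113721-52113960, 6.53 kb beyond its 3′ end. Its signals of 17.4 and 15.0 (16.2 ± 1.70, SD, n = 2) were the highest of any region away from promoters around the 9 genes, and 4 of its footprints were found in both libraries. It holds 24 CpG in 240 bases. Its midpoint was 127 kb from the first Stat4 start site, and a promoter region of a neighbouring gene lay at 132 kb. A link of the region to Stat4 was not tested. Inside Stat4, the strongest region was at chr1:52004181-52004380, 17.1 kb from the first start site, with signals of 1.08 and 1.63. Of 23 regions in the Stat4 window, 12 had a peak in replicate 2 only and 1 in replicate 1 only, whereas over the genome 26399 regions had a peak in replicate 2 only and 18101 in replicate 1 only. A run of 8 of these 12 lay within 4.64 kb of intron, at chr1:52026165-52030800, with signals from 0.0450 to 0.127. Only 4.85% of all peaks of replicate 2 were as weak as that. No peak of replicate 1 overlapped the run.

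At Jak1, the strongest region away from the promoter was at chr4:101292121-101292320, 26.9 kb upstream, with signals of 3.97 and 3.20 (3.59 ± 0.540, SD, n = 2), and a second one stood 27.9 kb upstream with 2.35 and 1.56. The 5 shared regions inside the 113 kb gene that are not its promoter were weak, with mean signals from 0.579 to 0.904. The first of the upstream regions is printed on the minus strand, because it is as rich in CpG as a promoter: it holds 24 CpG in 200 bases. None of the protein-coding start sites considered lies within 1 kb of it.
Jak1 upstream peak: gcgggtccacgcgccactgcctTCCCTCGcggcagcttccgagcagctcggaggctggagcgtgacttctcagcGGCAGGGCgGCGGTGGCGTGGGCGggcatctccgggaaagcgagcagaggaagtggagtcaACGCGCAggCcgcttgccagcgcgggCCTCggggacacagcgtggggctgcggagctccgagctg

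At Jak2, the peak in an intron of Plgrkt, 42.6 kb past the 3′ end, had signals of 8.99 and 7.81 (8.40 ± 0.837, SD, n = 2), close to those of the Jak2 intron peak. At Stat2, the strongest region away from promoters had 6.11 and 5.70 (5.91 ± 0.293, SD, n = 2) and lay 42.9 kb past the gene, and a coding exon of Stat2 itself carried one of 2.22 and 1.61 at chr10:128284161-128284340. Both held a fully footprinted CTCF core. At Stat6, the strongest was in an intron of Nemp1, at chr10:127674761-127675040, with 4.34 and 4.35. In that region 40.4% of 31-base words occur more than once in the genome, so read placement there is less certain.

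The peak over a coding exon of Stat3, at chr11:100893521-100893700, served as the strongest region away from promoters for Stat3, Stat5a and Stat5b alike, since it lies in all 3 windows. Its signals were 8.24 and 7.59 (7.91 ± 0.457, SD, n = 2), above the promoters of Stat5a and Stat5b in both libraries and far below that of Stat3. Within Stat5b, the strongest was an intron peak at chr11:100814541-100814740, with 3.83 and 2.80 (3.32 ± 0.731, SD, n = 2). It is printed on the minus strand, because 3 overlapping copies of the NRF1 core GCATGCGC, counted over both strands, share 1 footprint of both libraries.
Stat5b intron peak: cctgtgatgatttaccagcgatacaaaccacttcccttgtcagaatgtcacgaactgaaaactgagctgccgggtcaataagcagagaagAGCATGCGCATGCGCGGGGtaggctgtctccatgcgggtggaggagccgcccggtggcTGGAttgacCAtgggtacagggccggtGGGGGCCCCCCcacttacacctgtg

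Across the 115 shared regions, the CTCF core was found 13 times in 13 regions, where 13.8% of the 60596 shared regions of the genome held it. Of the 13 matches, 8 lay wholly in footprints of both libraries. Over the genome 51.9% of the 9019 such matches in shared regions did so. The NRF1 core, GCNTGCGC, was found 18 times in 13 regions, where 7.73% of all shared regions held it. Of the 18 matches, 9 were wholly footprinted, against 43.0% over the genome. In 200-bp windows of the 67 regions away from promoters, the NRF1 core was present in 7 (10.4%), against 2.63% of 39125 such regions of the genome. The CTCF core was present in 8 (11.9%), against 12.1%. Other GC-rich words were also above the genome in these regions, KLF at 46.3% against 31.2% and SP at 28.4% against 14.3%. CCAAT was below it, at 16.4% against 20.3%. In the central promoter windows the NRF1 core was at 1 of the 9, against 19.4% of open promoters, and the CTCF core at 2, against 15.2%. Both cores were added after these sequences were seen, so their counts are descriptions only. Overlapping matches were counted separately.

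A word that STAT proteins themselves read was less common. TTCNNNGAA, the GAS element, was in none of the 9 central promoter windows of 200 bp, where 3.48% of open promoters had it, and in 5 of the 67 regions away from promoters (7.46%), against 5.02% over the genome. In the full 115 regions it occurred 7 times. It read TTCTCAGAA 23.4 kb upstream of Jak2, TTCCCTGAA in an intron of Jak2 1.11 kb from its start site, TTCGGTGAA 12.5 kb past the 3′ end of Jak3, TTCCCGGAA 17.9 kb upstream of Stat3 and TTCCCAGAA in the strong region past Stat4. None of the 7 lay wholly in footprints of both libraries, as did 4.57% of the matches over the genome. Also searched were TTCNNNNGAA, the STAT6-type spacing, and TTTCNNTTTC, the core of the interferon-stimulated response element (ISRE). Both were in 0 of the 9 promoter windows, against 2.54% and 1.29% of open promoters. Each was in 2 of the 67 regions away from promoters (2.99%), against 4.35% and 2.02% over the genome. An ISRE core, TTTCGATTTC, lay in the strong region past Stat4. The absence of a word from a window says only that these letters are not there. AGATAA, read by the GATA factors of blood cells, was in 0 of the 9 promoter windows, where 2.28% of open promoters had it. Of the 67 regions away from promoters, 9 held it (13.4%), against 11.6% over the genome. Of its 15 matches in the 115 regions, 2 lay wholly in footprints of both libraries, 1 downstream of Stat2 and 1 in an intron of Stat3. Over the genome 4.46% of the 6098 such matches in shared regions did so.

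**Figure D4:**
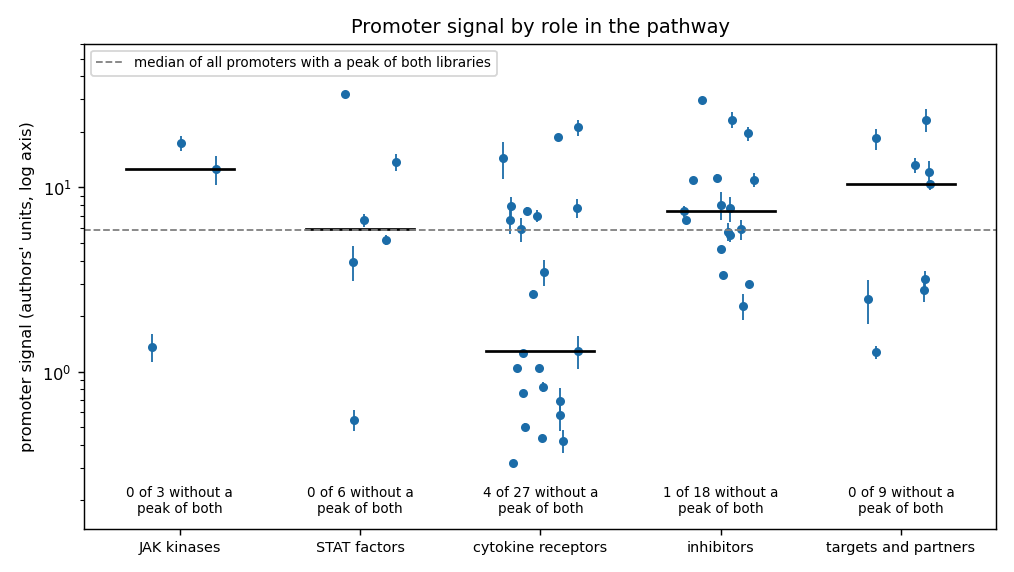
Mean promoter signal of each gene with a peak in both libraries, by role in the pathway, on a log axis; vertical bars span the 2 libraries and black lines are medians. The dashed line is the median of all open promoters, 5.83; the receptors fall on both sides of it with a median of 1.29, and the inhibitors have a median of 7.43.

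The genes upstream and downstream of the family were described from lists of receptors, inhibitors and targets. Of 27 cytokine receptor genes, 23 had an open promoter, with a median signal of 1.29. The strongest were the interferon receptor genes Ifnar1, at 21.2 ± 2.99, and Ifngr1, at 18.8 ± 0.283, and the erythropoietin receptor gene Epor, at 14.4 ± 4.57 (SD, n = 2 each). Epor was at 17.6 in replicate 1 and 11.1 in replicate 2, tilted to the same library as Jak2, its kinase. After centring, that was the commoner side, with 13 of the 23 open receptor promoters and 8280 of all 13124 open promoters. The genes without a promoter peak in either library included Il2rb and Il12rb1, chains of the interleukin-2 and interleukin-12 receptors, and Lepr, the leptin receptor. The plot of promoter signal by role shows the wide range of the receptors beside the other groups.

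Of 18 inhibitor genes, 17 had an open promoter, with a median of 7.43. The strongest were Pias4, at 29.6 ± 1.45, and Pias1, at 23.3 ± 3.20, which encode SUMO ligases that bind STAT proteins, and Ptpn1, at 19.6 ± 2.41 (SD, n = 2 each), a phosphatase that acts on Janus kinases. Among the feedback inhibitors, Socs1 was at 5.50 ± 0.648, Socs3 at 7.68 ± 1.69 and Cish at 6.68 ± 0.327. These 3 are named outside the rule for named genes, after their values were seen. Ptprc, which encodes the leukocyte phosphatase CD45, had a promoter peak in replicate 2 only, of 0.396. All 9 targets and partners were open, with a median of 10.4, and the strongest were the kinase gene Pim1 at 23.2 ± 4.67, the transferrin receptor gene Tfrc at 18.4 ± 3.42 and the survival gene Bcl2l1 at 13.2 ± 1.66 (SD, n = 2 each). The lists were not chosen at random, and 15 of 16 CpG-rich and 8 of 11 CpG-poor receptor promoters were open, so their shares are to be read beside the 89.7% and 23.8% of all genes.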

How the data were processed

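DNase-seq peaks, footprints and position lists of 2 spleen libraries were used, on mm10 per the labels. The deposited peaks carry a signal for each peak, set by the authors on each library alone, whose scale is not stated. Footprints and positions carry the authors' FDR (q-value), which is 0.01 in every footprint line. The aligner and callers were not given in the sources used here. The treatment of CAST/EiJ reads on a C57BL/6J genome was not given either. Promoter windows reached 1 kb from 41433 start sites of protein-coding transcripts in the basic set of GENCODE vM21. Start sites of other transcripts were not considered, so a region away from promoters may lie at one of those. Overlapping peaks (at least 1 bp) were merged into regions, called shared where both libraries had a peak. Log2 ratios were centred on the median of 60596 shared regions, 0.16. Motifs (18 words, plus the CTCF and NRF1 cores) were searched on both strands of the reference, in 200 bp on the midpoint of the strongest promoter region or of the region. Named were all 9 genes, the strongest region of each away from promoters, and, of each pathway list, the 3 strongest promoters and those without a peak, except a gene that is not reported here. The members and lists were chosen with earlier results of these data known. Promoter signals and shared regions were checked on simulated peaks. No test between groups was possible, because there was 1 group. Python 3.11.15, numpy 2.4.6, pandas 2.3.3, pysam 0.24.0 and samtools 1.23.1 were used.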

Additional observations from a re-analysis of the deposited data

How the results depend on the processing

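The count of 9 open promoters stayed at 9 with windows of 500 bp and 2500 bp, with merged regions and with either library alone. The shares of all protein-coding genes were then 58.5%, 63.0% and 59.7%, with 62.8% without replicate 1 and 62.4% without replicate 2. The count was 8 in the stricter lists (54.7% of all genes) or with peaks above the library median (52.2%), where Stat4 dropped out. The 115 shared regions became 35 over gene bodies only and 184 with 100 kb on each side, because the windows changed in size. With the stricter lists there were 84, with 50% reciprocal overlap 105, and with 1 library left out from 141 to 146. The 53 promoter footprints found in both libraries became 81 to 83 when 1 library was left out, because a footprint then needed no partner. The order of the 9 promoters was the same with the stricter lists, with 2500 bp, with scaled signals and with either library alone. With 500 bp Stat6 and Stat5a changed places, and with summed peaks Stat6 moved to place 3, Stat2 moved to 5, and Stat5a and Stat5b changed places. No paired analysis was possible because there was 1 group. Depth is unknown, so no counting error could be given, and n = 2 limits every SD.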
